A study of Mus musculus with 8 samples.

Results

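The growth hormone and insulin-like growth factor (IGF) axis was followed across 8 mouse liver arrays through 9 of its genes. They were Igf1, Igfals, Igfbp1, Igfbp2, Igfbp3, Igfbp4, Ghr, Socs2 and Socs3, out of 8251 genes on the array. Every probe set that the array annotation assigns to only 1 of these genes was taken, which gave 17 of 12422 tested probe sets. A probe set is the group of short oligonucleotides that measures 1 transcript on an Affymetrix array. Igfbp4 had 3 probe sets, Igfbp2 and Socs2 had 1 each, and the other members had 2. Growth hormone binds its receptor, the product of Ghr, on hepatocytes and drives the STAT5-dependent secretion of IGF-1, the product of Igf1, into the blood. There IGF-1 travels in a complex with the binding protein encoded by Igfbp3 and the acid-labile subunit encoded by Igfals, while Igfbp1 encodes a short-lived binding protein that insulin represses in liver and that rises with fasting and cellular stress. Socs2 and Socs3 encode feedback inhibitors of cytokine receptor signalling.

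The arrays (Affymetrix MG-U74Av2) measured total RNA of whole liver in 4 groups of 2. All mice carried the low-expressing Ttr::Fv2E-Perk transgene (line #58), in which transthyretin control sequences drive a drug-activated form of the stress kinase PERK. They were Atf4+/+ and Atf4-/- siblings from Atf4+/- crosses on a mixed FvB/n; Swiss Webster background. The groups were untreated Atf4+/+, untreated Atf4-/-, AP20187-treated Atf4+/+ and AP20187-treated Atf4-/-, and the series title describes the untreated mice as mock-injected. AP20187 is a small molecule that dimerises Fv2E-PERK, so that the kinase phosphorylates eIF2α and starts the integrated stress response without other stress, and ATF4 is a transcription factor made in that response. The dose, the time after injection, the sex and the age of the mice are not given in the sources used here. A single transgenic line was studied, and the labels do not say that replicates are separate mice. P-values may then reflect technical spread only.

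The deposited values are linear ratios, for 10714 of the 12488 listed probe sets centred on that probe set's own median over the 8 arrays. A ratio of 1 is therefore a typical array for that probe set, and ratios cannot be set against each other as levels of different genes. The median reached 0.99 or more for 16 of the 17 member probe sets, the exception being the Igfbp1 probe set 103897_r_at with 0.855. Differences below are AP20187-treated minus untreated on the scale of log2(ratio + 0.1), a scale that understates the change of low values, with the standard error (SE) of the limma fit to all 8 arrays. A difference was called at an adjusted p under 0.05 (Benjamini-Hochberg over 12422 probe sets).

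Labels were doubtful for 3 of the 4 untreated arrays. The Atf4 ratio was 2.36 and 0.30 in untreated Atf4+/+ replicates 1 and 2, 0.29 and 1.67 in untreated Atf4-/- replicates 1 and 2, 4.17 and 5.75 in the treated Atf4+/+ arrays and 0.25 and 0.33 in the treated Atf4-/- arrays. Replicate 2 of both untreated groups thus stood opposite to its genotype label, and the labels of untreated Atf4-/- replicate 1 name both genotypes. A swap of untreated genotype labels does not change the size of a treatment difference over both genotypes, though it changes the spread behind its test, whereas values within a genotype depend on the labels. AP20187 Atf4+/+ replicate 2 had the lowest log2 ratio of 5′ to 3′ Actb control probe sets of the 8 arrays, -0.64 against -0.19 to 0.14 in the others. These values were formed from the deposited ratios, so they compare arrays with each other and are not absolute measures of RNA quality. For Gapdh the corresponding values ran from -0.06, in that array, to 0.13, the next lowest being -0.05 in untreated Atf4+/+ replicate 1. The 3 doubted arrays left out below are AP20187 Atf4+/+ replicate 2 and replicate 2 of both untreated groups. Untreated Atf4-/- replicate 1, whose labels conflict, is not among them.

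Sequence upstream of the transcription start is shown for Igfbp1, the member whose ratio rose, for Ghr, whose probe sets had the smallest p-values of the other members over both genotypes, and for Igfals, a known STAT5 target whose window holds a STAT element. Igfbp2 had a smaller p-value than Igfals over both genotypes (0.0583 against 0.0669, unadjusted in limma) but is not shown. Its windows held none of the motifs searched. The sequences are RefSeq promoters of the build GRCm38.p6, 250 bases before the annotated start, read 5′ to 3′ on the strand of the gene. Capitals mark matches to CAAAACA, the core of a FOXO element, or TTCNNNGAA, a STAT element, the only motifs of those searched that occur in these 3 windows.
Igfbp1, chr11:7197537-7197786, plus strand: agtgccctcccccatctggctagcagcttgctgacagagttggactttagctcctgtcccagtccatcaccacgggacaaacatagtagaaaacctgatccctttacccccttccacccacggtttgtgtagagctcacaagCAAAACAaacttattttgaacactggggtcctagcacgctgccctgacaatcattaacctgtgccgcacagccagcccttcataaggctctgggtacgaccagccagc
Igfals, chr17:24877594-24877843, plus strand: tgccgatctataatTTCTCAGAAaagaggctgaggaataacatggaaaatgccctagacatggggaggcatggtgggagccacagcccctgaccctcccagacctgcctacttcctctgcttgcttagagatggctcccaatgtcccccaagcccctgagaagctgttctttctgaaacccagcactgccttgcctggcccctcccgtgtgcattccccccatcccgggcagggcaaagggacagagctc
Ghr, chr15:3583353-3583602, minus strand: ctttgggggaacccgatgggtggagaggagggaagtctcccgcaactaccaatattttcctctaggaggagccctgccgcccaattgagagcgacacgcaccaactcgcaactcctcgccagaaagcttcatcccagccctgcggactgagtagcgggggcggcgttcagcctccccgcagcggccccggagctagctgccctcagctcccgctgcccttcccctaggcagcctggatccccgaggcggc
The Igfbp1 window held CAAAACA from position -108 to -102, counted back from the transcription start. The Igfals window held TTCTCAGAA from -236 to -228, and the Ghr window shown held no match. Promoters were found for 8 of the 9 members, 12 windows in all, and both strands were searched. TTCNNNGAA occurred in 3 of the 12 windows, the others being TTCCTAGAA from -58 to -50 at a downstream start of Igfals and TTCTTAGAA from -154 to -146 at Socs3. The 4 motifs searched were CAAAACA, in 5.56% of all 32851 promoters of this length, TTCNNNGAA, in 7.02%, TATAAA, in 12.4%, and the composite ATF4 and C/EBP element TGATGNAA, in 3.45%. TGATGNAA occurred in none of the 12 windows, and TATAAA in 1 of Igfbp4 and 1 of Ghr. TATAAA and the other motifs did not overlap. A match describes the letters only.

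Igfbp1 rose with AP20187 in the comparison over both genotypes. Its ratio on probe set 103896_f_at was 0.33 and 0.43 in the untreated Atf4+/+ arrays and 0.30 and 0.39 in the untreated Atf4-/- arrays. With AP20187 it was 1.83 and 1.89 in Atf4+/+ and 1.57 and 2.12 in Atf4-/-. The lowest treated array thus stood above the highest untreated array. In whole liver a change in the number of cells of a type and a change in RNA per cell cannot be told apart. The mean ratio was 0.362 ± 0.059 (SD, n = 4 arrays) without and 1.85 ± 0.23 (SD, n = 4 arrays) with AP20187. Over both genotypes the difference was 2.08 ± 0.18 (SE), 4.23-fold on the log2(ratio + 0.1) scale, with an adjusted p of 0.0392 in limma. By its p-value the probe set ranked 4 of 12422, and it was 1 of 5 called (0.0403%), all of them higher. The other named genes among the 5 were B3galt1, Ifrd1 and Atf3. No other member probe set was called. The call was lost whenever any single array was left out, with differences of 1.98 to 2.18. Without the 3 doubted arrays the difference was 2.22 and was not called.

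Within Atf4+/+ the Igfbp1 difference was 2.04 ± 0.25 (SE, adjusted p = 0.104 in limma), and within Atf4-/- it was 2.12 ± 0.25 (adjusted p = 0.166 in limma). The Atf4-/- difference minus the Atf4+/+ difference was 0.08 ± 0.35. Treated Atf4-/- minus treated Atf4+/+ gave -0.03 ± 0.25, and the same contrast in untreated liver gave -0.11 ± 0.25. The genotype contrasts for Igfbp1 were therefore each smaller than their SE. Igfbp1 lies at chr11:7197787-7202546 (GRCm38.p6), 3539 bases from Igfbp3 at chr11:7206086-7215498.

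The other Igfbp1 probe set, 103897_r_at, did not show this pattern. Its ratios were 0.65 and 3.31 in untreated Atf4+/+, 0.66 and 1.04 in untreated Atf4-/-, 0.63 and 1.5 in treated Atf4+/+ and 0.83 and 0.88 in treated Atf4-/-. Untreated Atf4+/+ replicate 2 was the highest array and the groups overlapped throughout. The difference over both genotypes was -0.26 ± 0.52 (SE, adjusted p = 0.871 in limma). In the maker's naming, _r marks a probe set for which the usual rules of probe choice were relaxed, and _f marks one whose probes may match a family of similar sequences. The Igfbp1 rise rests on 103896_f_at alone.

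**Figure D1:**
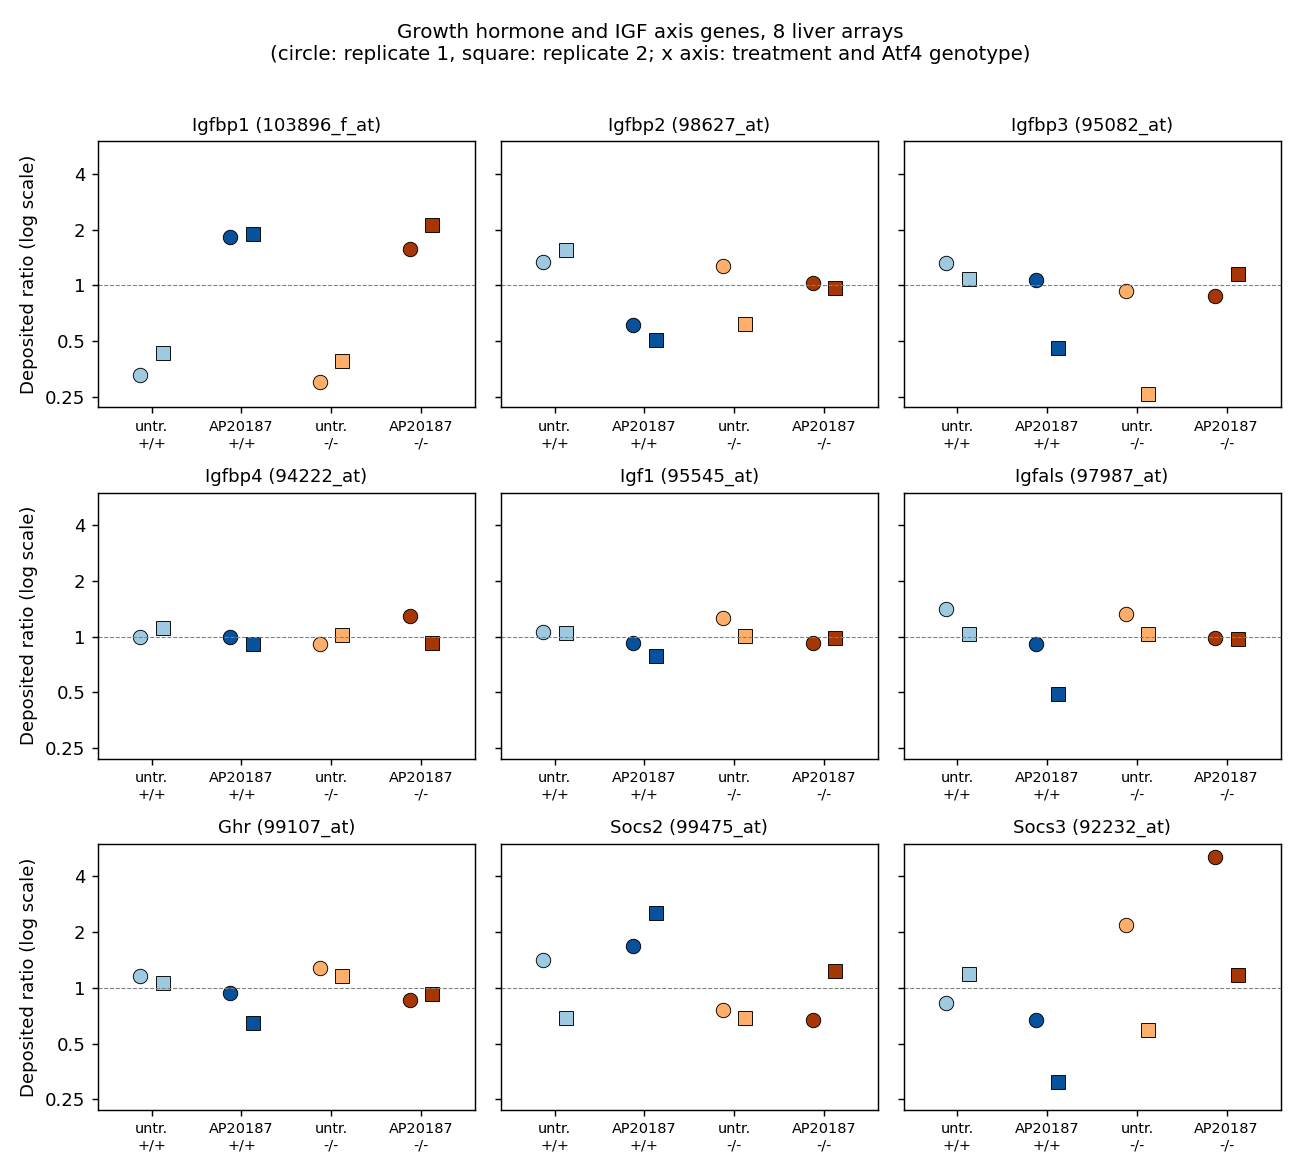
Deposited ratio (log axis, relative to each probe set's own median) of 1 probe set per gene in the 8 arrays, by treatment and Atf4 genotype. Circles are replicate 1 and squares replicate 2 of each group. Igfbp1 lies between 0.30 and 0.43 in the 4 untreated arrays and between 1.57 and 2.12 in the 4 treated arrays, while Igfbp4 (0.91 to 1.29) and Igf1 (0.79 to 1.26) stay near 1.

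Igfbp2, which encodes a circulating binding protein whose hepatic mRNA is known to rise with fasting, was lower after AP20187 in Atf4+/+ and mixed in Atf4-/-. On its only probe set, 98627_at, the ratio was 1.34 and 1.55 in untreated Atf4+/+ and 0.61 and 0.51 in treated Atf4+/+. In Atf4-/- it was 1.27 and 0.62 without and 1.03 and 0.97 with AP20187. The Atf4+/+ groups did not overlap, and in Atf4-/- the untreated arrays lay on either side of the treated ones. Groups of 2 against 2 arrays separate easily, and the share of all probe sets that did so was not counted. The Atf4+/+ difference was -1.23 ± 0.33 (SE), with an unadjusted p of 0.00905 and an adjusted p of 0.394 in limma. In Atf4-/- it was 0.15 ± 0.33 (adjusted p = 0.933 in limma). The test of the difference between genotypes gave 1.37 ± 0.47, with an unadjusted p of 0.0245 and an adjusted p of 0.901 in limma, so no genotype effect was called. The direction in Atf4-/- turned to -0.32 without untreated Atf4-/- replicate 2, 1 of the arrays whose Atf4 level opposed its label. Over both genotypes the difference was -0.54 ± 0.23 (adjusted p = 0.460 in limma).

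Igfbp3, the main carrier of circulating IGF-1, made in rat liver largely outside hepatocytes, gave no consistent direction. On 95082_at its ratio was 1.32 and 1.08 in untreated Atf4+/+, 0.93 and 0.26 in untreated Atf4-/-, 1.07 and 0.46 in treated Atf4+/+ and 0.88 and 1.15 in treated Atf4-/-. On 95083_at it was 0.43 and 0.36, 0.88 and 1.35, 1.45 and 0.29, and 1.12 and 1.63 in the same order. Treated and untreated arrays overlapped on each probe set, and the probe sets put different arrays lowest. The pooled differences over genotypes were 0.09 ± 0.40 and 0.47 ± 0.44 (SE), with adjusted p of 0.948 and 0.713 in limma. Within Atf4+/+ the difference on 95082_at was -0.68 ± 0.57, and within Atf4-/- it was 0.86 ± 0.57. The difference between genotypes, 1.54 ± 0.80, had an adjusted p of 0.944 in limma.

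Igfbp4 encodes a binding protein that restrains IGF action in tissues. Its ratios on 94222_at were 1.0 and 1.11 in untreated Atf4+/+, 0.91 and 1.02 in untreated Atf4-/-, 1.0 and 0.91 in treated Atf4+/+ and 1.29 and 0.92 in treated Atf4-/-. On 101571_g_at the 8 arrays ranged from 0.78 to 1.25, and on 101570_at from 0.26 to 2.75, with the lowest and the highest both in untreated Atf4-/-. The groups overlapped on all 3 probe sets. Over both genotypes the differences were 0.02 ± 0.17 on 94222_at, -0.00 ± 0.16 on 101571_g_at and -0.02 ± 0.66 on 101570_at, with adjusted p from 0.975 to 0.994 in limma. The larger SE of 101570_at goes with the spread of its untreated Atf4-/- arrays, 0.26 and 2.75.

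Igf1 was lower in treated liver on 1 of its probe sets. On 95545_at the ratio was 1.06 and 1.05 in untreated Atf4+/+ and 1.26 and 1.01 in untreated Atf4-/-. With AP20187 it was 0.93 and 0.79 in Atf4+/+ and 0.93 and 0.99 in Atf4-/-. All treated arrays lay below all untreated arrays, narrowly, the highest treated ratio being 0.99 and the lowest untreated 1.01. The difference over both genotypes was -0.24 ± 0.15 (SE), with an unadjusted p of 0.159 and an adjusted p of 0.578 in limma. It was -0.27 ± 0.21 in Atf4+/+ and -0.21 ± 0.21 in Atf4-/-. On 95546_g_at the ratios ran from 0.84 to 1.24 in untreated and from 0.81 to 1.2 in treated liver and overlapped, and the difference was -0.04 ± 0.19 (adjusted p = 0.951 in limma).

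Igfals, the gene of the acid-labile subunit and a known STAT5 target in liver, had lower ratios in treated liver on 97987_at. They were 1.42 and 1.03 in untreated Atf4+/+, 1.33 and 1.04 in untreated Atf4-/-, 0.91 and 0.49 in treated Atf4+/+ and 0.98 and 0.97 in treated Atf4-/-. The highest treated array, 0.98, lay below the lowest untreated array, 1.03. Over both genotypes the difference was -0.51 ± 0.23 (SE), with an unadjusted p of 0.0669 and an adjusted p of 0.475 in limma. In Atf4+/+ it was -0.76 ± 0.32 and in Atf4-/- -0.25 ± 0.32. Without AP20187 Atf4+/+ replicate 2 the pooled value moved from -0.51 to -0.31.

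The other Igfals probe set, 162450_f_at, gave 1.34 and 1.60 in untreated Atf4+/+, 0.84 and 1.03 in untreated Atf4-/-, 0.87 and 0.97 in treated Atf4+/+ and 1.18 and 0.80 in treated Atf4-/-. The Atf4+/+ groups, of 2 arrays each, did not overlap, and the Atf4-/- groups did. The share of all probe sets separated in Atf4+/+ was not counted. The difference was -0.62 ± 0.26 in Atf4+/+ and -0.28 ± 0.18 over both genotypes (SE), with adjusted p of 0.555 and 0.592 in limma.

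Ghr, the growth hormone receptor gene, was lower in treated liver on both of its probe sets. On 99107_at the ratio was 1.16 and 1.06 in untreated Atf4+/+, 1.29 and 1.16 in untreated Atf4-/-, 0.94 and 0.65 in treated Atf4+/+ and 0.86 and 0.93 in treated Atf4-/-. On 99108_s_at it was 1.2 and 1.09, 1.15 and 1.10, 0.89 and 0.58, and 0.91 and 0.90 in the same order. On each all 4 treated arrays lay below all 4 untreated arrays, with AP20187 Atf4+/+ replicate 2 the lowest. The 2 probe sets gave nearly the same pattern over the 8 arrays, with a Pearson r of 0.96 across arrays that share the treatment split. Over both genotypes the differences were -0.43 ± 0.17 and -0.44 ± 0.17 (SE), with unadjusted p of 0.0395 and 0.0407, and neither was called, with adjusted p of 0.428 and 0.430 in limma. On 99107_at the difference was -0.45 ± 0.24 in Atf4+/+ and -0.41 ± 0.24 in Atf4-/-, and on 99108_s_at it was -0.60 ± 0.24 and -0.29 ± 0.24. The values pooled over genotypes lay between -0.58 and -0.31 with any 1 array left out.

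Hepatocyte markers were set beside Igf1, Igfals and Ghr. Over both genotypes 4 of the 5 measured had differences below 0, beside 6836 of all 12422 probe sets, and 1, Tat, above. The median was -0.25. Ttr, the transthyretin gene whose control sequences drive the transgene, was lower in treated liver. Untreated arrays had Ttr ratios of 1.15, 1.02, 1.43 and 1.25 and treated arrays 0.83, 0.47, 0.98 and 0.93, a difference of -0.57 ± 0.20 (SE, adjusted p = 0.385 in limma). Tat was higher in treated liver, with ratios of 1.03, 1.13, 1.08 and 1.19 against 0.97, 0.88, 0.92 and 0.78 in untreated arrays, a difference of 0.29 ± 0.15 (adjusted p = 0.514 in limma). Alb, Apoa1 and Apob overlapped between treated and untreated arrays, with differences of -0.13, -0.25 and -0.42. AP20187 Atf4+/+ replicate 2, the array with the lowest Actb 5′ to 3′ ratio, was the lowest of the 8 in Ttr and in Apob (0.29), but not in Alb (0.98), Apoa1 (0.87) or Tat (1.13). The part of hepatocyte content or RNA quality in these member values was not tested.

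Socs2, which encodes an inhibitor of growth hormone receptor signalling and is itself a STAT5 target, had its highest ratios in treated Atf4+/+ liver. On its only probe set, 99475_at, the ratio was 1.41 and 0.69 in untreated Atf4+/+, 0.76 and 0.69 in untreated Atf4-/-, 1.68 and 2.53 in treated Atf4+/+ and 0.67 and 1.24 in treated Atf4-/-. Both treated Atf4+/+ arrays exceeded all others, while the treated Atf4-/- arrays overlapped with untreated ones. The difference was 0.99 ± 0.42 (SE) in Atf4+/+, 0.30 ± 0.42 in Atf4-/- and 0.64 ± 0.30 over both genotypes, with adjusted p of 0.564, 0.883 and 0.485 in limma. Without untreated Atf4+/+ replicate 2, an array whose Atf4 level opposed its label, the Atf4+/+ value was 0.52 and the pooled value 0.41. Without the 3 doubted arrays, which include the treated Atf4+/+ array with the ratio of 2.53, each was 0.24. Treated Atf4-/- minus treated Atf4+/+ was -1.09 ± 0.42, with an unadjusted p of 0.0401 and an adjusted p of 0.908 in limma. The test of the difference between the AP20187 effects gave -0.68 ± 0.60 (adjusted p = 0.945 in limma).

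Socs3, a STAT3 target that limits interleukin-6 receptor signalling, varied widely between arrays of the same group. On 92232_at the ratio was 0.83 and 1.19 in untreated Atf4+/+, 2.20 and 0.59 in untreated Atf4-/-, 0.67 and 0.31 in treated Atf4+/+ and 5.12 and 1.17 in treated Atf4-/-. On 162206_f_at it was 0.82 and 1.0, 1.41 and 0.67, 0.68 and 1.0, and 2.18 and 1.2 in the same order. AP20187 Atf4-/- replicate 1 was highest on each probe set, untreated Atf4-/- replicate 1 came next, and treated and untreated arrays overlapped. Pooled over genotypes, the differences were 0.03 ± 0.58 and 0.28 ± 0.30 (SE), with adjusted p of 0.986 and 0.752 in limma. On 92232_at they were -0.96 ± 0.82 in Atf4+/+ and 1.03 ± 0.82 in Atf4-/-, and the difference between them was 1.99 ± 1.17 (adjusted p = 0.944 in limma). With single arrays left out the Atf4-/- value ran from 0.012, without AP20187 Atf4-/- replicate 1, to 2.05, and the Atf4+/+ value from -1.42 to -0.51. Treated Atf4-/- minus treated Atf4+/+ was 2.20 ± 0.82 on 92232_at, with an unadjusted p of 0.0353 and an adjusted p of 0.880 in limma, and 0.89 ± 0.43 on 162206_f_at (adjusted p = 0.952 in limma).

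**Figure D2:**
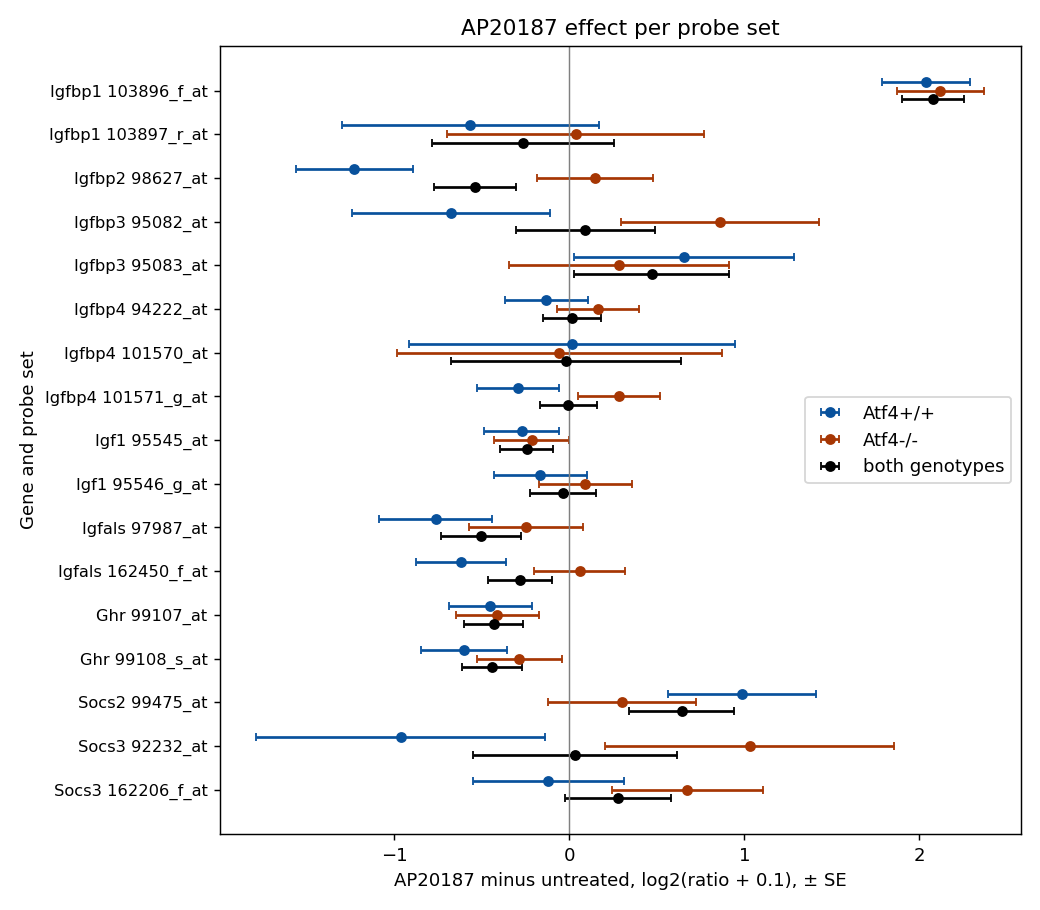
Difference of AP20187-treated minus untreated liver on the scale of log2(ratio + 0.1) for the 17 probe sets (x axis), in Atf4+/+, in Atf4-/- and over both genotypes. Points are limma estimates and bars ± SE. Igfbp1 on 103896_f_at stands at 2.04, 2.12 and 2.08, and the other 16 estimates over both genotypes lie between -0.54 and 0.64.

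The members were set against the whole array by counts. Over both genotypes 7 of the 17 probe sets had differences above 0 and 10 below, with a median of -0.02 beside -0.04 over all 12422. Of all probe sets, 5586 were above 0 and 6836 below. At an unadjusted p under 0.05, 1 was higher (Igfbp1), where 6.16% of all probe sets were, and 2 were lower (both of Ghr), where 5.15% were. Of the 17, 1 had all 4 treated arrays above all 4 untreated arrays, beside 4.19% of all probe sets. The reverse held for 4, those named above for Igf1, Igfals and Ghr, beside 3.78% of all probe sets. Both Ghr probe sets measure the same gene, so the 4 stand for 3 genes. Fewer arrays separate more easily. Igfbp2 joined the lower ones without untreated Atf4-/- replicate 2, where 5.72% of all probe sets were lower. Igfbp3 (95083_at) joined the higher one without the 3 doubted arrays, where 11.3% were higher and 14.7% lower. These include AP20187 Atf4+/+ replicate 2, the treated array with its lowest Igfbp3 ratio on that probe set (0.29).

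In Atf4+/+ liver, 4 of the 17 differences were above 0 and 13 below, with a median of -0.29 beside -0.06 over all probe sets. Of all 12422 probe sets, 5599 were above 0 and 6822 below. No member was called by limma, where 1 of 12422 probe sets (0.00805%) was. At an unadjusted p under 0.05, Igfbp1 was higher (background 4.78%) and Igfbp2 and Ghr (99108_s_at) were lower (background 4.31%). In Atf4-/- liver, 12 differences were above 0 and 5 below, beside 5970 and 6448 of all 12422, with a median of 0.15 beside -0.02. None was called by limma, as for all probe sets (0%), and at an unadjusted p under 0.05 Igfbp1 was higher (background 4.27%) and none was lower (background 3.16%).

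**Figure D3:**
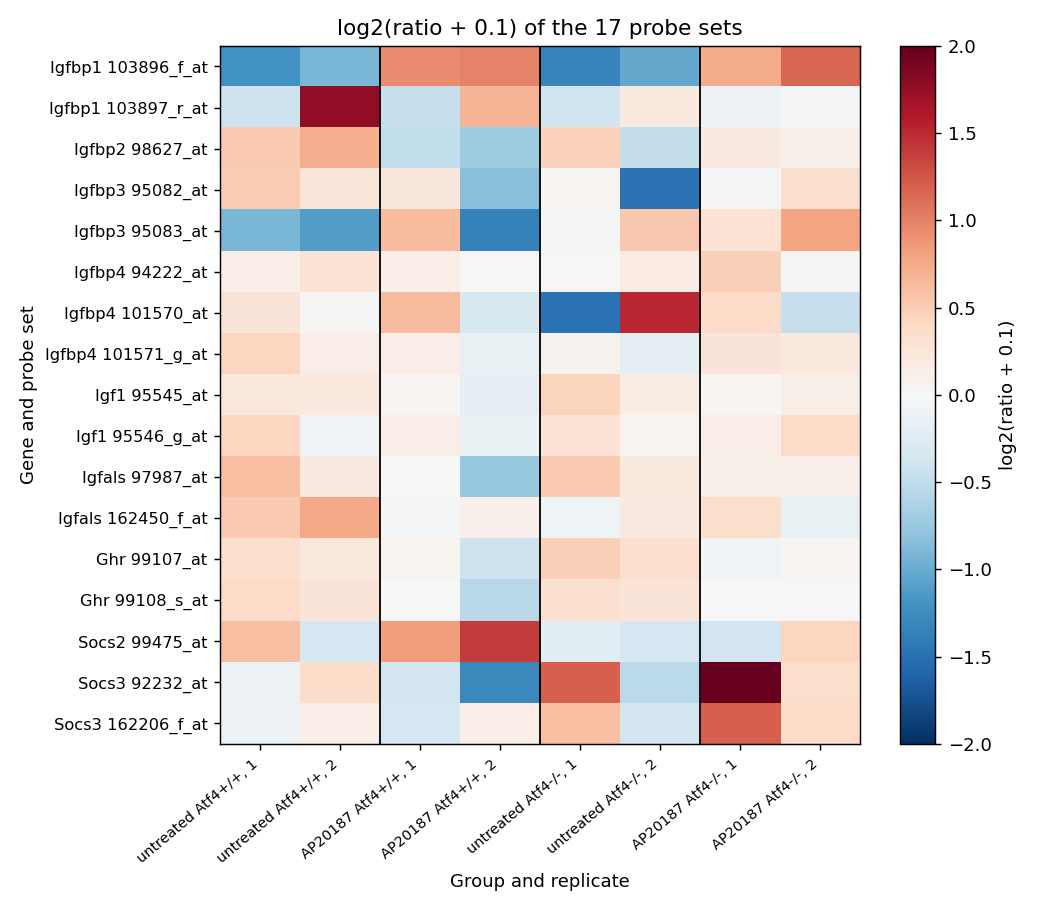
Values of log2(ratio + 0.1) of the 17 probe sets (rows) in the 8 arrays (columns), with vertical lines between the 4 groups. Red is above and blue below 0, and the scale ends at -2 and 2. Igfbp1 103896_f_at is blue in the 4 untreated arrays and red in the 4 treated arrays, and Socs3 92232_at is darkest in AP20187 Atf4-/- replicate 1, where its ratio was 5.12.

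Whether the AP20187 effect differed by genotype was tested directly. The Atf4-/- effect minus the Atf4+/+ effect was above 0 for 14 of the 17 probe sets, which stand for 9 genes. Of all 12422 probe sets 6628 were above 0. The median was 0.31 beside 0.04 over all probe sets. None was called by limma, nor was any other probe set (0%). At an unadjusted p under 0.05 there was 1 member higher, Igfbp2 (background 2.73%), and none lower (background 2.73%). Among treated livers, Atf4-/- minus Atf4+/+ was above 0 for 13 of 17, beside 6809 of all 12422, with a median of 0.23 beside 0.04. Both comparisons use the treated Atf4+/+ arrays, 1 of them the array with the lowest Actb 5′ to 3′ ratio. None was called (0% of all probe sets), and at an unadjusted p under 0.05 Socs3 (92232_at) was higher (background 2.53%) and Socs2 was lower (background 2.78%).

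Among untreated livers 3 of the 4 arrays have doubtful genotype labels. There 5 of 17 differences were above 0, beside 6130 of all 12422, and the median was -0.11 beside -0.01. None was called by limma (0% of all probe sets), and none passed an unadjusted p of 0.05 in either direction (background 2.76% higher and 2.56% lower). The largest were those of Igfbp3, which pointed in opposite directions, 1.27 ± 0.63 on 95083_at and -1.09 ± 0.57 on 95082_at (SE, adjusted p of 0.951 and 0.952 in limma). The Igfbp2 difference there was -0.63 ± 0.33 (adjusted p = 0.952 in limma).

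Other genes of growth hormone and IGF signalling were taken from a list of 25, of which 20 were measured. Over both genotypes none was called by limma, and at an unadjusted p under 0.05 none was higher and 3 were lower, beside 6.16% and 5.15% of all probe sets, with a median of -0.18. These were the insulin and IGF receptor substrate gene Irs2, the phosphatase gene Ptpn11 and Stat5b, which encodes the transcription factor downstream of the growth hormone receptor in liver. Stat5b had ratios of 1.26 and 1.69 in untreated Atf4+/+, 1.04 and 1.31 in untreated Atf4-/-, 0.96 and 0.66 in treated Atf4+/+ and 0.59 and 0.75 in treated Atf4-/-. All its treated arrays lay below all untreated ones, with a difference of -0.76 ± 0.20 (SE, unadjusted p = 0.00792, adjusted p = 0.298 in limma). Of the 20 genes 2 were separated so, Stat5b and the IGF binding protein gene Igfbp6, beside 3.78% of all probe sets. Igfbp6 gave -0.21 ± 0.15 (adjusted p = 0.622 in limma). Irs2 gave -1.26 ± 0.26 and Ptpn11 -1.44 ± 0.32 (adjusted p of 0.224 and 0.236 in limma), and on each the groups overlapped. Irs1, next by p-value, gave -0.75 ± 0.36 (adjusted p = 0.490 in limma).

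Growth hormone pulses set the sex bias of many liver genes in mice. Over both genotypes all of 8 measured male-biased genes had differences below 0, with a median of -0.13, and 5 of 8 female-biased genes were above 0, with a median of 0.07. Of all 12422 probe sets, 6836 were below 0 and 5586 above in that comparison. No gene of either list passed an unadjusted p of 0.05 there. The male-biased median was -0.48 in Atf4+/+, with 1 gene lower at an unadjusted p under 0.05, and 0.06 in Atf4-/-, with none. For the Atf4-/- effect minus the Atf4+/+ effect it was 0.55, with 2 higher, and for genotype with AP20187 0.34, with 3 higher. The female-biased medians in the same order were 0.14 with 1 higher, -0.23 with none, -0.42 with 1 lower and -0.07 with 2 lower. Without AP20187 no gene of either list passed, and limma called none in any comparison. At that threshold the shares of all probe sets were 4.78% higher and 4.31% lower in Atf4+/+, and 4.27% and 3.16% in Atf4-/-. They were 2.73% each way for the difference of effects, and 2.53% and 2.78% for genotype with AP20187.

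Over both genotypes, of 8 insulin and FOXO responsive genes, a group that includes Irs2, 7 were below 0, beside 6836 of all 12422 probe sets. Their median was -0.18, and Irs2 alone passed an unadjusted p of 0.05 in that comparison (background 5.15% lower). In Atf4+/+ 2 genes of the list were lower at that threshold (background 4.31%), in Atf4-/- 1 (background 3.16%), and for genotype with AP20187 1 was higher (background 2.53%). The list was not split by the direction in which insulin moves each gene, so its sign count has no single reading. Of 13 measured STAT3 and acute phase genes 11 were above 0 over both genotypes, with a median of 0.40. Of these, 5 passed an unadjusted p of 0.05, all higher, where 6.16% of all probe sets did, and none was called by limma. They included Apcs (1.51 ± 0.27), Lcn2 (2.10 ± 0.51) and Saa2 (1.62 ± 0.51), with adjusted p of 0.185, 0.267 and 0.362, while Socs3, also a STAT3 target, overlapped between treated and untreated arrays. Over both genotypes 8 of 8 stress response genes were above 0, with a median of 3.21, beside 5586 of all 12422 probe sets. At an unadjusted p under 0.05 were 7 of them (background 6.16% higher), and 1 was called (background 0.0403%). Their median was 4.38 in Atf4+/+ and 2.27 in Atf4-/-. The stress response list was chosen with earlier results of these data known, so it is no independent check of the treatment.

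Markers of the cells that whole liver holds gave these medians over both genotypes. Hepatocyte markers had -0.25 (5 of 6 measured), Kupffer cell markers -0.04 (7 of 7), endothelial markers -0.24 (5 of 6), stellate cell markers 0.16 (5 of 6), bile duct markers 0.14 (3 of 5) and blood cell markers 0.00 (4 of 5). Of all these markers Ttr alone passed an unadjusted p of 0.05. Ratios to a probe set's own median do not show whether a marker is present or absent, so the labelled tissue could not be checked from levels. The 4 measured sex chromosome markers had a median of 0.31, none passed an unadjusted p of 0.05 and none separated treated from untreated arrays.

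The probe sets most like Igfbp1 (103896_f_at) over the 8 arrays, by Pearson r of log2(ratio + 0.1) among 9424 candidates with 1 gene, were those of Ifrd1 (0.98), Rpl13a (0.97), Reps1 (0.97), Smc3 (0.97) and B3galt1 (0.96). All of them were higher in each treated array than in each untreated array, as were 4.19% of all probe sets. They were picked for likeness to Igfbp1, which itself separates the arrays in this way, so the separation largely follows from the choice. They differed in size, with Smc3 between 0.80 and 0.87 in untreated and between 1.13 and 1.19 in treated liver, and B3galt1 between 0.16 and 0.32 and between 1.68 and 4.32. The B3galt1 ratio was higher in the treated Atf4+/+ arrays (4.32 and 3.67) than in the treated Atf4-/- arrays (1.83 and 1.68), whereas the Igfbp1 ratios of these groups overlapped.

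Those most like Igf1 (95545_at), among 9423 candidates, were Urod, Ucp1, Lamp1, Acp5 and Serpina1c, each with an r of 0.96. Each was highest in untreated Atf4-/- replicate 1 and lowest in AP20187 Atf4+/+ replicate 2, as Igf1 was (1.26 and 0.79). These r describe 8 arrays that share the treatment split, and for Igf1 also the array with the lowest Actb 5′ to 3′ ratio.

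**Figure D4:**
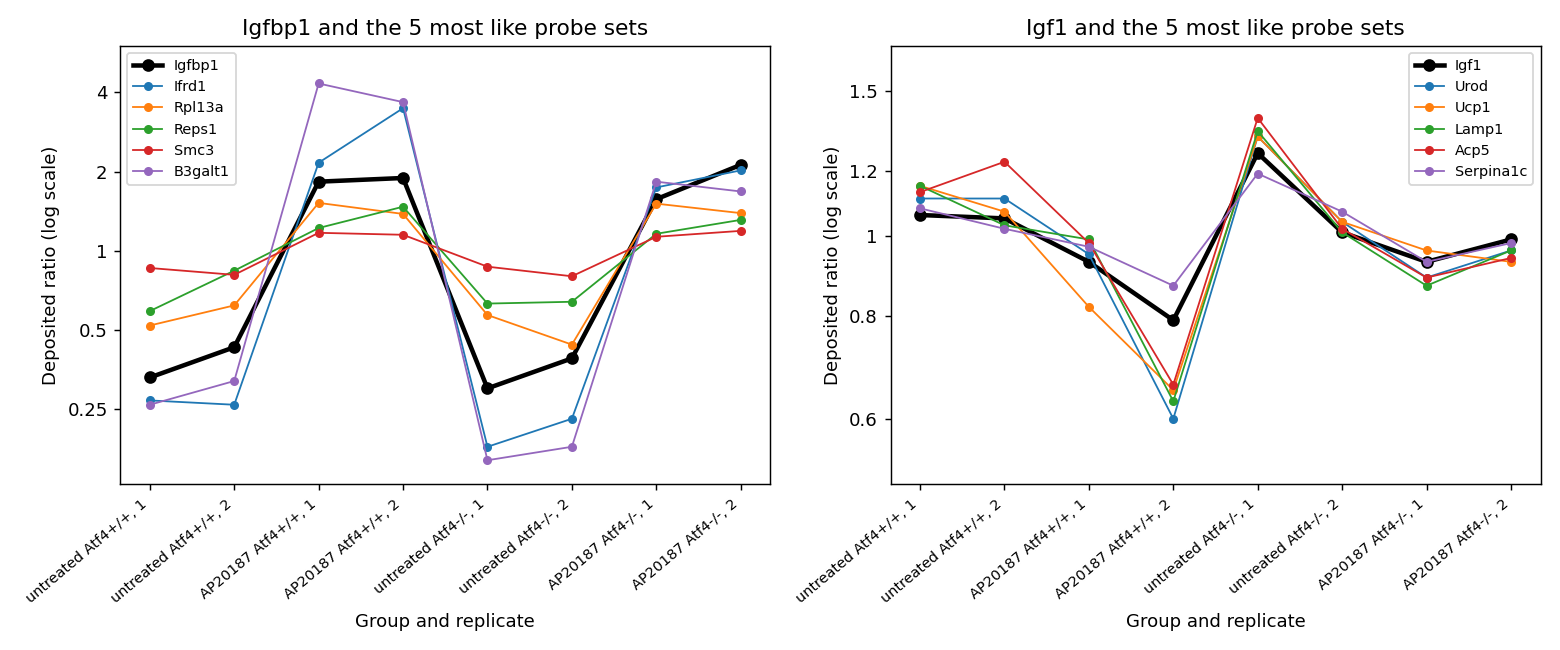
Deposited ratio (log axis) by array of Igfbp1 and of Igf1 (black) and the 5 probe sets with the highest Pearson r to each. The Igfbp1 panel shows a step between untreated and treated arrays, from 0.30 to 0.43 up to 1.57 to 2.12, and the Igf1 panel a maximum of 1.26 in untreated Atf4-/- replicate 1 and a minimum of 0.79 in AP20187 Atf4+/+ replicate 2.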

How the data were processed

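RNA abundance in liver was read on MG-U74Av2 arrays, 2 in each of the 4 groups. The table the authors deposited gives linear ratios with a step of 0.01. The sources used here do not say how signals were summarised, scaled or divided and hold no detection calls, so that signal over background is unknown and precision is limited by the 8 arrays. Column medians lay between 0.95 and 0.99, and the ratios were used without further scaling. Groups came from the source names, for 1 array from the description, and the source name was kept where they conflicted.

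Leaving out 66 control probe sets gave 12422 for the tests, of which the platform annotation names 1 gene for 10833, several for 396 and none for 1193. Symbols of 10817 were updated through the RefSeq gene table. In limma 3.58.1 (R 4.3.3), 4 group means were fitted without covariates to log2(ratio + 0.1) of all 8 arrays and moderated by eBayes (4 residual and 2.37 prior degrees of freedom). The 6 comparisons were the AP20187 effect in each genotype, their mean and difference, and genotype with and without AP20187. The Benjamini-Hochberg adjustment ran within each comparison. The fit was tested on simulated data. Plots were made in Python 3.11.15 with pandas 2.3.3 and matplotlib 3.10.9.

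Every member probe set is given. Where 1 stands for a gene, it was chosen by a row median of 0.99 or more, then by a plain name, then by the smallest spread within groups. From each list at most 4 genes with the smallest p over both genotypes were named. Exceptions were the hepatocyte markers, where all 5 measured were named, and Igfbp6, named for its separated arrays. The members and lists were chosen with earlier results of these data known, and no p-value is adjusted over a list alone. Alternatives were other pseudocounts, quantile normalization, median centring, a filter on the row median, robust fitting, array weights, fits of the compared groups alone, regrouping by the description and leaving out arrays.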

Additional observations from a re-analysis of the deposited data

How the results depend on the processing

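Of 51 member differences recomputed as 945 alternative values, 876 kept direction and side of the threshold and 55 reversed, none of them a called difference; 36 differences never reversed. The Igfbp1 call over both genotypes held with a pseudocount of 0.5, quantile normalization, median centring, the row median filter and robust fitting. It was lost, leaving 0 members called, with a pseudocount of 0.02 (2.30, adjusted p = 0.0516 in limma), array weights (2.08, 0.0512), regrouping by the description (2.05, 0.0535), without both arrays opposite to their labels (2.23, 0.413), without all 3 doubted arrays (2.22, 0.526), an alternative chosen after seeing the data, and with any array left out (1.98 to 2.18, 0 members in each). Regrouping by the description raised the members called in Atf4+/+ from 0 to 1, Igfbp1 (2.12, adjusted p = 0.0491 in limma). Over all probe sets the calls ranged from 0 to 12 over both genotypes, from 0 to 17 in Atf4+/+ and from 0 to 2 for the difference of effects, and were 0 in the other comparisons throughout.

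The cause of the reversals was not tested. Over both genotypes, a pseudocount of 0.02 gave 0.013 for Igfbp4 101570_at and -1.16e-05 for Socs3 92232_at, quantile normalization 0.013 for Igf1 95546_g_at, 0.045 for Igfbp4 101570_at and 0.036 for Igfbp4 101571_g_at, and the last was 0.012 with median centring and 0.095 with regrouping. Without both arrays opposite to their labels, Igfbp1 103897_r_at was 0.43, Igfbp3 95082_at -0.35, Igfbp4 101570_at 0.67 and Socs3 92232_at -0.28. Without all 3 doubted arrays these were 0.15, -0.088, 0.91 and -0.055, and Socs3 162206_f_at was -0.024. Igfbp2 in Atf4-/- was -0.32 in both settings, and the Socs2 difference of effects was 0.0028 in the latter. For Igfbp1 103896_f_at, regrouping gave -0.15 for the difference of effects and 0.12 for genotype without AP20187, and quantile normalization 0.12 for genotype with AP20187.

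With single arrays left out, the differences over both genotypes ran from -0.16 to 0.091 for Igf1 95546_g_at, -0.81 to 0.28 for Igfbp1 103897_r_at, -0.29 to 0.47 for Igfbp3 95082_at, -0.027 to 0.97 for Igfbp3 95083_at, -0.77 to 0.73 for Igfbp4 101570_at, -0.078 to 0.069 for Igfbp4 101571_g_at, -0.095 to 0.13 for Igfbp4 94222_at and -0.48 to 0.54 for Socs3 92232_at. In Atf4-/- they ran from -0.32 to 0.61 for Igfbp2 and from -0.098 to 0.70 for Socs2. For Igfbp1 103896_f_at the difference of effects ran from -0.12 to 0.29, genotype with AP20187 from -0.23 to 0.18 and genotype without it from -0.26 to 0.042. No paired analysis was possible because replicate numbers follow accession order and tie no samples together. With 2 arrays a group, a group's spread rests on a single difference. The median SE for 2 against 2 arrays was 0.32, and differences well above it, such as Igfbp2 in Atf4+/+ at -1.23, were not called.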
